A study of Mus musculus with 12 samples.

Results

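Transcripts best known from neutrophils were followed in cardiac macrophages (Mφ) sorted by flow cytometry. The 8 genes S100a8, S100a9, Csf3r, Cxcr2, Retnlg, Ngp, Camp and Lcn2 were chosen by name, after earlier results from these same counts were known. Their levels and tests in the 3 groups are therefore a description and not independent evidence. All 8 are among the 24445 gene symbols counted, and all 8 passed the filter on low counts that left 14608 genes for testing. Macrophage sorts were made from hearts of adult male C57BL6/J mice, 1 library per mouse, with no age stated per mouse. Control mice (Ct, n = 4) carried a saline pump, for a time the labels do not give per mouse. The second group carried a pump that delivered isoproterenol, which activates β-adrenergic receptors, for 14 days at 30 mg/kg/day and had concentric hypertrophy (ECH, n = 4). The last group received the same dose for 28 days and had heart failure (HF, n = 4). No allele or transgene is named for any group, and all mice carried a pump. Cells were enriched on CD45, gated as live CD11b+ and sorted on CD14 and CD64. CD11b is also carried by neutrophils, and no antibody to Ly6G is named among the sorting antibodies.

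Neutrophils are short-lived granulocytes that mature in the bone marrow and reach the heart from the blood. While they mature, they transcribe the proteins of their granules in waves. Primary granule genes such as Mpo and Elane come first, specific granule genes such as Camp, Ltf, Ngp and Lcn2 follow, and most of these transcripts are gone by the time the cell circulates. S100a8, S100a9, Cxcr2 and Csf3r are transcribed in mature, circulating neutrophils. Macrophages and monocytes can transcribe some of these genes as well, Csf3r, S100a8, S100a9 and Lcn2 among them, so no single member marks a cell type alone.

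Libraries held between 88466559 and 111180291 counts assigned to genes. Ct mouse 2 and HF mouse 1 had the fewest genes with at least 1 count, 14489 and 13600, against 15054 to 15940 in the other libraries. Markers of the labelled cell type were abundant: the summed level of 11 macrophage genes was 33179 to 46881 CPM (counts divided by a TMM-scaled library size), against 130 to 1724 CPM for the 8 neutrophil genes. Lyz2 alone gave 12791 to 21913 CPM of the macrophage sum, so the sums are not a measure of purity. Running numbers at the end of the sample descriptions placed the libraries in a pair of inferred sets, the Ct mice with ECH mice 1 and 2, and the HF mice with ECH mice 3 and 4. No source names these sets as batches. No set holds both Ct and HF mice, so HF and Ct can be separated from the sets only through the ECH mice. In these bulk samples, fewer cells of a type and less RNA per cell cannot be told apart.

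All 8 neutrophil genes had a lower mean level in ECH and in HF than in Ct, and the levels varied widely between mice of a group. The plainest separation was in Ngp and Camp, specific granule genes that were at or close to 0 in all 4 HF mice, while the other 6 genes were still present there. None of the 8 was called in any comparison by the quasi-likelihood test of edgeR (a false discovery rate, FDR, under 0.05 over all genes and at least a 2-fold change). In ECH against Ct, 0.356% of all genes were called, and the median log2 fold change of the 8 genes was −1.41, against 0.010 for all genes. In HF against Ct, 0.377% of all genes were called, and the median was −1.02, against −0.015. Without HF mouse 4, the fold changes of S100a8, S100a9, Csf3r, Cxcr2, Retnlg and Lcn2 behind this median were all more negative (given with each gene). In HF against ECH, 0% of all genes were called, and the median was −0.15, against −0.018. With Camp set to its bound (given with its values), the last 2 medians were also −1.02 and −0.15. At an unadjusted p under 0.05, 2, 3 and 2 of the 8 passed in the same order of comparisons, where 11.9%, 16.1% and 7.98% of all genes did. DESeq2 called 1, 2 and 2 of the 8, and 1.99%, 2.79% and 0.403% of all genes. Both contrasts against Ct share the 4 Ct mice.

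**Figure D1:**
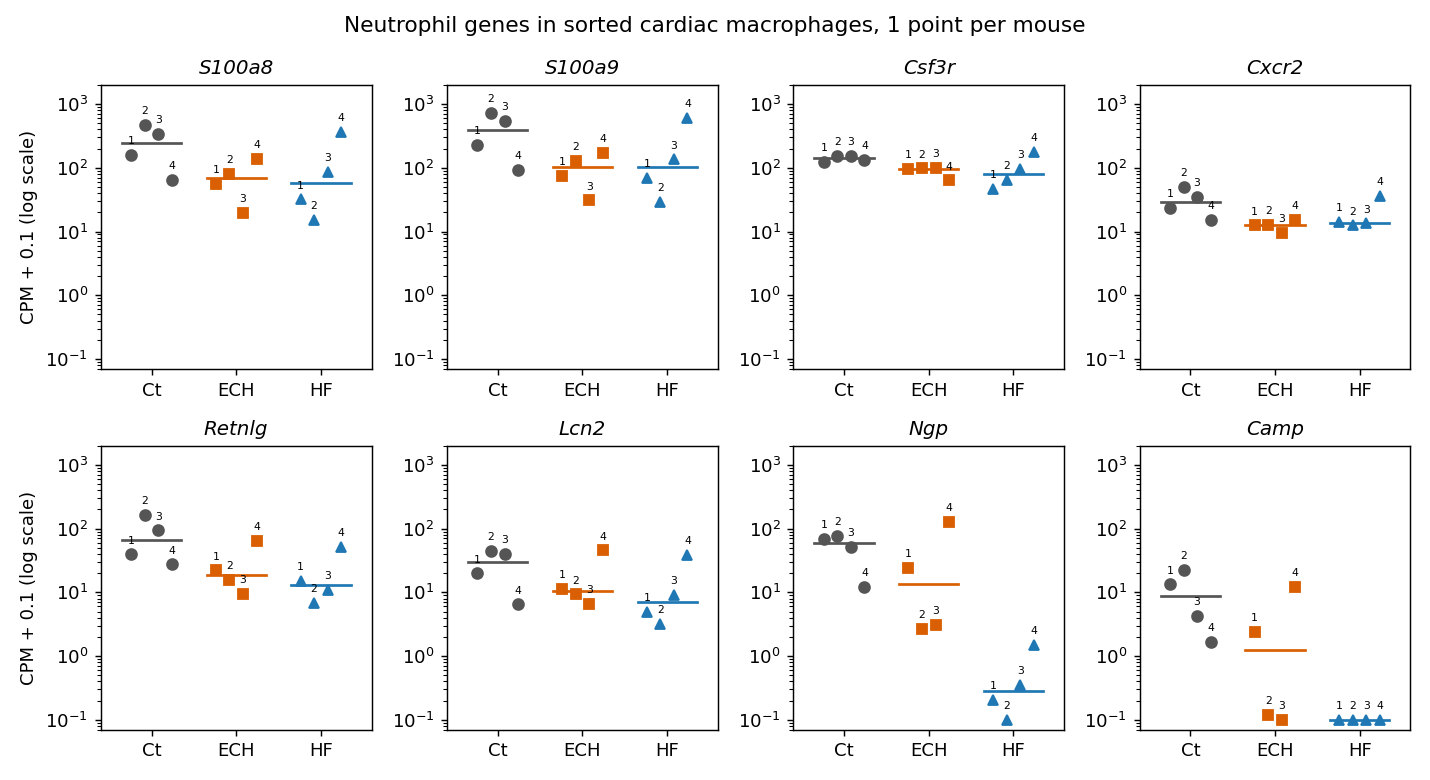
Level of each of the 8 neutrophil genes in every library, as CPM + 0.1 on a log scale. Each point is 1 mouse with its number beside it, and the horizontal bars are group medians. Ct mouse 2 is the highest Ct mouse in all 8 panels, and Camp is at 0 in the 4 HF mice.

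The spread had a pattern shared by the genes. Ct mouse 2 was the highest of its group for 8 of 8 genes and Ct mouse 4 the lowest for 7 of 8. ECH mouse 4 was the highest of its group for 7 of 8 genes, the exception being Csf3r, for which it was the lowest. HF mouse 4 was the highest for all 7 genes detected in HF, and HF mouse 2 the lowest for 6 of them. Each inferred set thus held both high and low mice.

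S100a8 and S100a9 encode the subunits of calprotectin, a calcium-binding protein that fills the neutrophil cytosol. They lie next to each other on mouse chromosome 3 of GRCm38, S100a8 at chr3:90668978-90670035 on the plus strand and S100a9 at chr3:90692632-90695721 on the minus strand, 22597 bp apart. S100a8 was at 158, 474, 340 and 64.4 CPM in Ct mice 1 to 4, at 55.9, 80.2, 19.7 and 138 CPM in ECH mice 1 to 4 and at 31.8, 15.1, 85.0 and 370 CPM in HF mice 1 to 4. The groups overlapped, and HF mouse 4 lay within the range of the Ct mice. By edgeR, S100a8 had a log2 fold change of −1.82 (SE 0.89, FDR = 0.449) in ECH against Ct and of −1.05 (SE 0.87, FDR = 0.607) in HF against Ct. Without HF mouse 4 the latter was −2.56, and without Ct mouse 2 it was −0.58. HF against ECH gave 0.77 (SE 0.87, FDR = 0.911), which turned to −0.74 without HF mouse 4.

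S100a9 was at 230, 736, 544 and 92.6 CPM in Ct, at 73.7, 130, 30.8 and 172 CPM in ECH and at 69.0, 29.1, 135 and 602 CPM in HF, with the mice in the same order. It followed S100a8 mouse by mouse, and S100a9 held between 1.24 and 2.17 counts per S100a8 count in the 12 libraries. Its log2 fold change in the edgeR fit was −1.98 (SE 0.86, FDR = 0.385) in ECH against Ct and −0.94 (SE 0.84, FDR = 0.634) in HF against Ct. The value for HF against Ct was −2.36 without HF mouse 4 and −0.47 without Ct mouse 2. In HF against ECH it was 1.04 (SE 0.84, FDR = 0.825), and −0.39 without HF mouse 4.

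Csf3r (chr4:126024550-126044440, plus strand) encodes the receptor for G-CSF, the cytokine that drives neutrophil production, and Cxcr2 (chr1:74153989-74161246, plus strand) the chemokine receptor by which neutrophils leave the marrow and follow CXCL chemokines. Csf3r was the most even of the 8 genes in Ct, at 123, 154, 154 and 134 CPM, against 96.1, 97.9, 98.7 and 63.6 CPM in ECH and 46.9, 63.8, 94.7 and 176 CPM in HF. Every ECH mouse was below every Ct mouse, whereas HF mouse 4 was above them all. The edgeR fit gave log2 fold changes of −0.67 (SE 0.32, FDR = 0.434) in ECH against Ct and −0.57 (SE 0.32, FDR = 0.410) in HF against Ct. The latter was −1.04 without HF mouse 4 and −0.34 without HF mouse 1. HF against ECH was 0.10 (FDR = 0.982), with −0.38 without HF mouse 4 and −0.03 without ECH mouse 4.

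Cxcr2 was at 23.1, 50.4, 35.3 and 15.3 CPM in Ct mice, at 12.4, 12.6, 9.46 and 15.1 CPM in ECH mice and at 13.9, 12.4, 13.3 and 36.4 CPM in HF mice. The 4 ECH mice all lay below the lowest Ct mouse, by a margin of 15.1 against 15.3 CPM, and HF mouse 4 stood apart from the other HF mice. Its log2 fold change in ECH against Ct was −1.32 (SE 0.40, unadjusted p = 0.00583, FDR = 0.198 by edgeR). DESeq2 alone called it, at FDR = 0.0368, and over all alternatives the FDR ran from 0.0368 to 0.855. HF against Ct gave −0.71 (SE 0.40, FDR = 0.412) and HF against ECH 0.62 (SE 0.40, FDR = 0.748) in the edgeR fit. Without HF mouse 4 these were −1.23 and 0.092, and without Ct mouse 2 the former was −0.37. Csf3r and Cxcr2 were the 2 members lower in every ECH mouse than in any Ct mouse, an order that 3.64% of all genes tested also had.

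Retnlg (chr16:48872621-48874496, plus strand) encodes a small secreted resistin-like protein made by neutrophils and their marrow precursors. It was at 39.2, 166, 93.6 and 27.3 CPM in Ct, at 22.0, 15.5, 9.26 and 64.6 CPM in ECH and at 14.97, 6.63, 10.9 and 52.1 CPM in HF. Mice 1 to 3 of both isoproterenol groups lay below all Ct mice, and mouse 4 of each lay within their range. In HF against Ct the log2 fold change was −1.94 (SE 0.76, unadjusted p = 0.0230, FDR = 0.243 by edgeR), and in ECH against Ct −1.55 (SE 0.75, FDR = 0.441). Without mouse 4 of the isoproterenol group these were −2.91 and −2.38, and without Ct mouse 2 they were −1.33 and −0.94. HF against ECH was −0.40 (FDR = 0.961) and turned to 0.44 without ECH mouse 4.

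Lcn2 (chr2:32384633-32388252, minus strand) encodes lipocalin 2, a specific granule protein that binds bacterial siderophores and that many other cells also make. Its levels were 19.7, 44.4, 39.4 and 6.35 CPM in Ct mice, 11.3, 9.18, 6.56 and 45.3 CPM in ECH mice and 4.83, 3.06, 8.88 and 38.3 CPM in HF mice. ECH mouse 4 and HF mouse 4 were far above the others of their groups, the former just above the highest Ct mouse and the latter among the Ct values. No edgeR fold change of Lcn2 passed: −0.60 (SE 0.82, FDR = 0.823) in ECH against Ct, −0.996 (SE 0.83, FDR = 0.605) in HF against Ct and −0.39 (FDR = 0.971) in HF against ECH, the last being 0.61 without ECH mouse 4. Against Ct, ECH gave −1.61 without ECH mouse 4 and HF gave −2.29 without HF mouse 4.

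Ngp encodes neutrophilic granule protein, a cathelicidin-related protein of specific granules, and Camp encodes the cathelicidin antimicrobial peptide of the same granules. Both lie on chromosome 9 of GRCm38, Ngp at chr9:110419747-110423012 on the plus strand and Camp at chr9:109847379-109849617 on the minus strand, 570130 bp apart. Ltf, which encodes lactoferrin and is another specific granule gene, lies 596259 bp beyond Ngp at chr9:111019271-111042767 on the plus strand. The stretches just before their starts are shown because these 3 genes were all near 0 in HF. They are printed with bases matching TTGCNNAA, the core letters that C/EBP factors recognise, in capitals. Each is written 5′ to 3′ on the strand of its gene, from RefSeq on GRCm38.p6, and ends on the base before the GENCODE M21 gene start. The RefSeq starts lie 61 (Ngp), 161 (Camp) and 21 (Ltf) bases inside the GENCODE genes.
Ngp, chr9:110419657-110419746, plus strand: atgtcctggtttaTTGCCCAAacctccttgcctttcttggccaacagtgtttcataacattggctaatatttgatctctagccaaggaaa
Camp, chr9:109849618-109849706, minus strand: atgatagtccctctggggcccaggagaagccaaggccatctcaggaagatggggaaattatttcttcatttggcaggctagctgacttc
Ltf, chr9:111019181-111019270, plus strand: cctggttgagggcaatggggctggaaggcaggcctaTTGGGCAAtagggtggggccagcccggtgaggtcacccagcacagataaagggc
The match in Ngp begins 77 bases before the gene and that in Ltf 54 bases before it, the latter read from the opposite strand, and the Camp stretch holds none. Over the 250 bases before the RefSeq start, which take in the first GENCODE bases of such genes, on both strands, TTGCNNAA was found in 4 of the 8 members (S100a9, Retnlg, Ngp and Lcn2) and in 9.56% of 32851 promoters of that length. GAGGAA, letters that PU.1 and other ETS factors recognise, was found in S100a8, Csf3r, Cxcr2 and Lcn2 and in 23.3% of the promoters. A match is a description of letters and not a site of binding.

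Ngp was at 68.5, 76.6, 50.9 and 11.98 CPM in Ct mice 1 to 4 and at 24.1, 2.58, 2.96 and 128 CPM in ECH mice 1 to 4. In HF mice 1 to 4 it was at 0.105, 0, 0.251 and 1.40 CPM, from 11, 0, 27 and 157 counts. All 4 HF mice were below every Ct and every ECH mouse, and ECH mouse 4 was the highest of the 12. In HF against Ct the log2 fold change was −6.87 (SE 1.51, unadjusted p = 0.000524) and the FDR of 0.0691 missed the threshold by edgeR. With 1 library left out, this fold change ran from −8.76 to −6.46. DESeq2 gave FDR = 0.000209, and over 22 alternatives the FDR ran from 0.000209 to 0.254, with 4 calls, among them one without ECH mouse 4 at 0.0454. HF against ECH gave −6.47 (SE 1.49, unadjusted p = 0.000747, FDR = 0.491 by edgeR), and the alternatives gave an FDR from 0.00329 to 1. This fold change was −4.48 without ECH mouse 4 and −8.36 without HF mouse 4. Within the inferred set that holds HF and ECH mice 3 and 4, the log2 fold change was −7.21, with FDR = 0.0492 by edgeR. Its ECH side rests on mice 3 and 4 alone, at 2.96 and 128 CPM. ECH against Ct was −0.40 (SE 1.15, FDR = 0.928), and −2.40 without ECH mouse 4.

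Camp was at 13.2, 22.0, 4.22 and 1.59 CPM in Ct, from 1324, 1895, 417 and 164 counts. In ECH mice 1 to 4 it was at 2.30, 0.0194, 0 and 12.2 CPM, from 232, 2, 0 and 1407 counts. It was 0 in all 4 HF mice, which at 3 counts per library allows up to 0.0287 CPM. ECH mice 1 and 4 thus carried Camp at Ct levels, and ECH mice 2 and 3, like the HF mice, held no more than 2 counts. Against that limit the Ct mean was at least 358-fold higher than HF and the ECH mean at least 126-fold higher. Without Ct mouse 2 the first bound was 221-fold, and without ECH mouse 4 the second was 26.9-fold. By edgeR, HF against Ct had an unadjusted p of 0.00139 (FDR = 0.0999), and the FDR over the alternatives ran from 1.39e-05 with DESeq2 to 0.239, with 3 calls. HF against ECH had FDR = 0.491, with a range of 0.00128 to 1, and in ECH against Ct the log2 fold change was −1.50 (SE 1.61, FDR = 0.769), and −3.73 without ECH mouse 4. Lower values in every HF mouse than in any Ct mouse were found for Ngp and Camp alone among the 8, and for 4.45% of all genes tested. Against ECH mice only Ngp had that order, as had 3.56% of all genes.

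**Figure D2:**
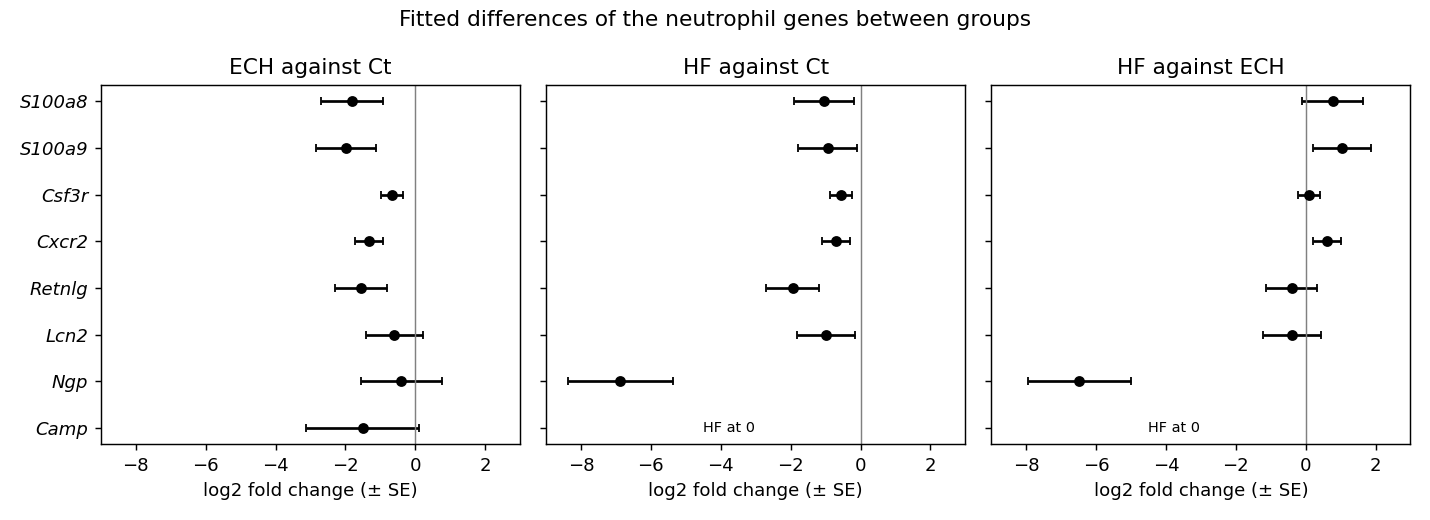
Log2 fold change of each neutrophil gene in the 3 comparisons, with bars of 1 SE from the edgeR fit of 12 libraries. Ngp lies at −6.87 in HF against Ct and −6.47 in HF against ECH, while the other genes with a fitted value shown lie between −1.98 and 1.04.

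Set against S100a8 in the same library, the granule genes parted. This was noticed after the values were seen and is given with no test. For each 1000 counts of S100a8, Ngp had 434, 162, 150 and 186 counts in Ct mice and 432, 32.1, 150 and 928 in ECH mice. In HF mice it had 3.31, 0, 2.96 and 3.79. Camp had 12.4 to 83.9 counts per 1000 of S100a8 in Ct, 0 to 88.1 in ECH and 0 in HF. Lcn2, of the same granule class, stayed at 93.6 to 125 in Ct, 114 to 333 in ECH and 103 to 203 in HF. HF mouse 4 had more S100a8 than Ct mice 1, 3 and 4, at 370 CPM, with 1.40 CPM of Ngp and 0 of Camp.

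**Figure D3:**
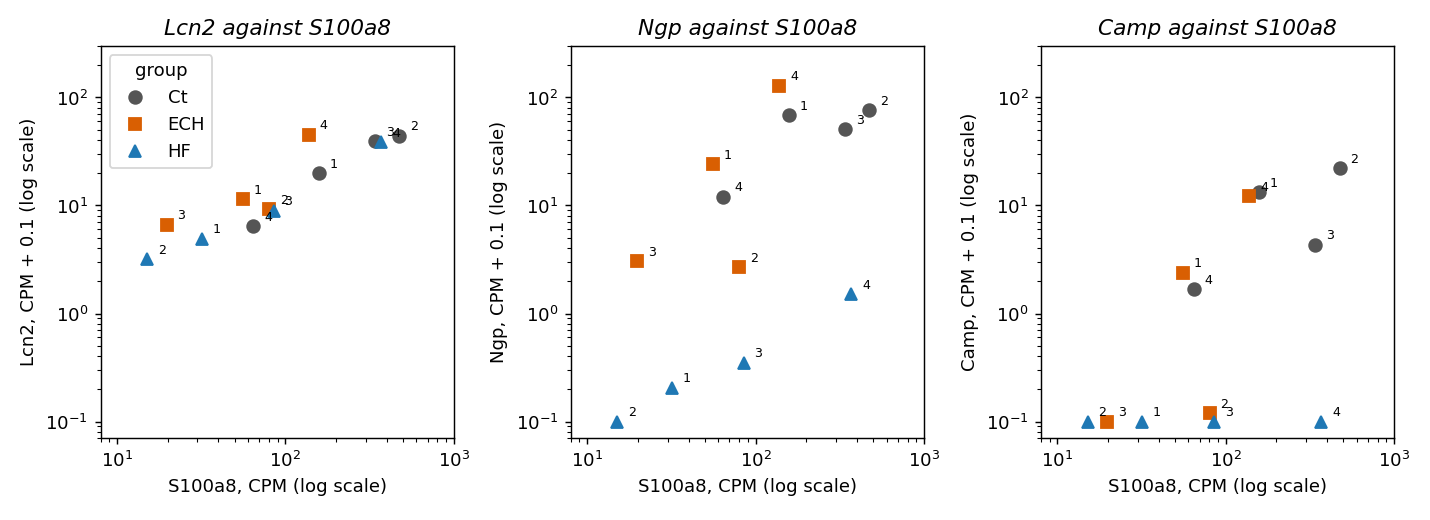
Lcn2, Ngp and Camp against S100a8, each point 1 mouse, in CPM on log axes with 0.1 added on the vertical axis. For Lcn2, HF mice 3 and 4 fall among the others and HF mice 1 and 2 below them, at 4.83 and 3.06 CPM. All 4 HF mice lie below all others for Ngp, where they reach at most 1.40 CPM.

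Per kilobase of exon, the members ranked in Ct from S100a9, at 767.5 ± 561 CPM per kb (SD, n = 4), and S100a8, at 373 ± 264, to Retnlg at 137 ± 107. Ngp followed at 42.6 ± 23.5 and Csf3r at 39.2 ± 4.22, then Camp at 13.6 ± 12.3, Lcn2 at 10.5 ± 6.73 and Cxcr2 at 10.2 ± 5.02. Neighbours in this order differed by less than the larger of their SDs, except Csf3r and Camp. In HF the leading 3 stood in the same order, at 400 ± 509, 181 ± 239 and 35.7 ± 35.3 CPM per kb (SD, n = 4), whereas Ngp, at 0.360 ± 0.532, and Camp, at 0, came last.

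Across the 12 libraries, the members moved together to different degrees, on log2(CPM + 0.1). S100a8 and S100a9 had Pearson's r = 0.992 and Spearman's rho = 1.0, with a permutation p of 1e-05 for r, the smallest 100000 resamples give (0.00021 adjusted over 28 pairs), and r = 0.987 without Ct mouse 2 and HF mouse 2. Over the 15 pairs among the 6 members other than Ngp and Camp the median r was 0.884, from 0.557 to 0.992. Csf3r gave the lower values, for example r = 0.707 with S100a8 (adjusted permutation p = 0.0202). Ngp had r = 0.617 with S100a8 (adjusted permutation p = 0.0517), which was 0.393 without Ct mouse 2 and HF mouse 2. After removal of group means, r of Ngp with S100a8 was 0.751. Camp was at no more than 2 counts in 6 libraries, so no correlation of Camp alone is given. With its pairs included, the median over 28 pairs was 0.723, 0.799 within the set of the Ct mice, 0.650 within the set of the HF mice and 0.730 after removal of group means. The points share library depth and scaling.

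**Figure D4:**
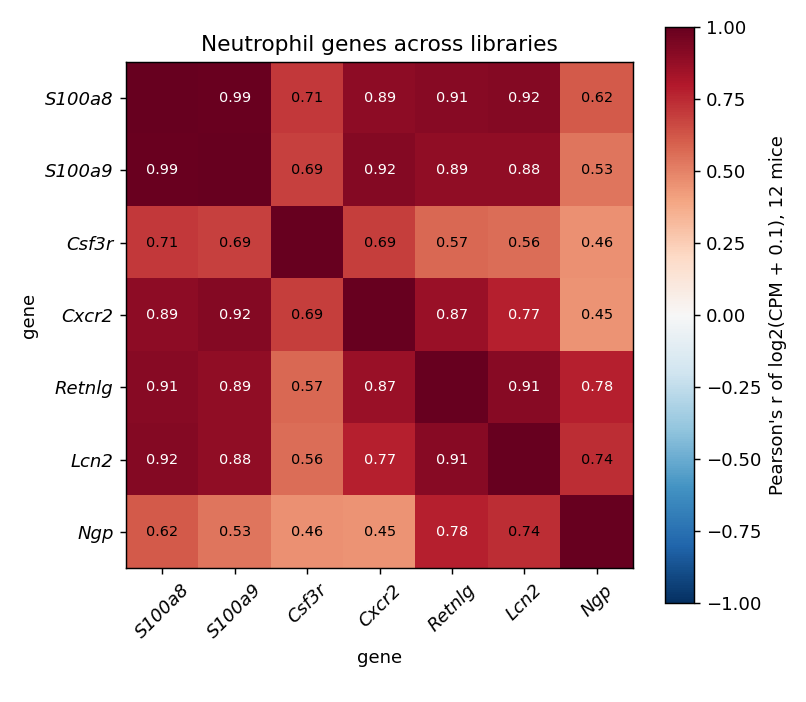
Pearson's r between neutrophil genes over 12 mice on log2(CPM + 0.1), with Camp left out because 6 mice held at most 2 counts. The colour scale runs from −1 to 1, S100a8 with S100a9 stands at 0.99, and Csf3r and Ngp have the lowest values, down to 0.45 for Ngp with Cxcr2.

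Of 31 other genes listed for neutrophils, 24 could be tested. The 7 that could not include the primary granule genes Mpo, Elane and Ctsg, at or near 0 throughout. None of the 24 was called by edgeR in ECH against Ct, HF against Ct or HF against ECH. In each comparison 3 had an unadjusted p under 0.05 by edgeR, against 11.9%, 16.1% and 7.98% of all genes. DESeq2 called 2, 2 and 1 of the listed genes, and 1.99%, 2.79% and 0.403% of all genes. Negative log2 fold changes were found for 18 of 24 in ECH against Ct (median −1.15), for 19 of 24 in HF against Ct (median −0.93) and for 9 of 24 in HF against ECH (median 0.30).

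Ltf, the third most abundant of the other granule genes tested, was at 17.3, 51.3, 13.5 and 10.1 CPM in Ct, at 10.5, 0.0194, 0.556 and 41.9 CPM in ECH and at 0, 0.314, 0 and 0.0626 CPM in HF. Like Ngp and Camp, it was lower in every HF mouse than in any Ct mouse, and like Camp it was low in ECH mice 2 and 3. Its log2 fold change in HF against Ct was −7.91 (SE 1.87, unadjusted p = 0.000958, FDR = 0.0886 by edgeR), and DESeq2 called it at FDR = 0.000715.

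Mmp9, the gelatinase of neutrophil granules that macrophages also make, had another order: 82.9, 104, 81.9 and 75.4 CPM in Ct, 24.3, 31.2, 8.16 and 30.7 CPM in ECH and 34.6, 31.3, 80.6 and 117 CPM in HF. Every ECH mouse was below every Ct and every HF mouse, in HF by a margin of 31.2 against 31.3 CPM. In ECH against Ct its log2 fold change was −1.87 (SE 0.45, unadjusted p = 0.00104, FDR = 0.0982 by edgeR), and DESeq2 called it at FDR = 0.00173.

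Il1r2, a decoy receptor for interleukin 1, was at 62.5, 214, 49.7 and 27.4 CPM in Ct, 33.0, 25.8, 30.2 and 42.7 CPM in ECH and 11.4, 12.1, 18.8 and 79.6 CPM in HF. Trem1, an activating receptor of myeloid cells, was at 54.3, 170, 75.3 and 28.2 CPM in Ct, 43.7, 44.4, 20.8 and 43.0 CPM in ECH and 15.7, 19.2, 41.0 and 106 CPM in HF. In both, Ct mouse 2 and HF mouse 4 were the highest of their groups, as in the members. So were they for Hdc, which encodes histidine decarboxylase, at 16 to 78.4 CPM in Ct, 6.53 to 24.4 CPM in ECH and 6.37 to 78.3 CPM in HF. Mmp8, neutrophil collagenase, was highest in ECH mouse 4 as Ngp was, at 59.9 CPM, with log2 fold changes of 0.60 in ECH against Ct (FDR = 0.764 by edgeR) and −0.69 in HF against Ct (FDR = 0.649). Asprv1, a retroviral-like protease gene, reached 22.5 CPM in Ct mouse 2 and 18.2 CPM in HF mouse 4 and was 0 in HF mice 1 and 2. Ly6g, the surface marker most used for mouse neutrophils, stayed between 0 and 2.76 CPM, and Ct mouse 2 was again the highest.

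**Figure D5:**
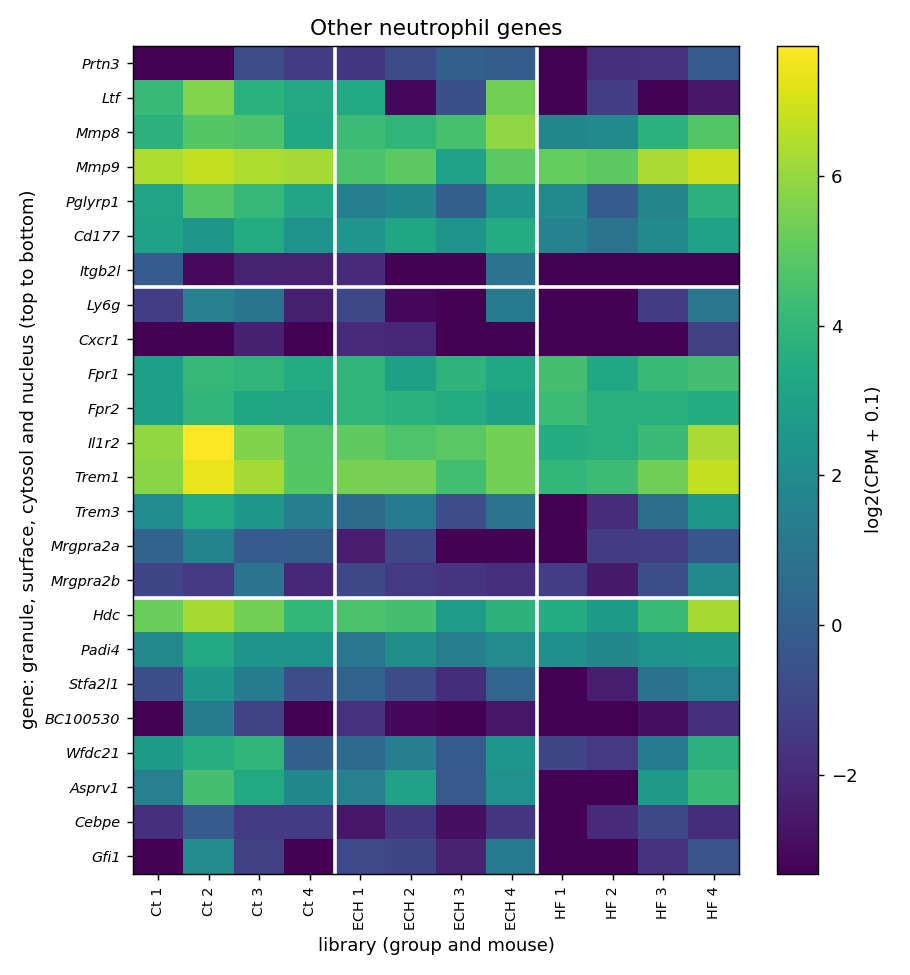
Level of 24 other neutrophil genes in each library, as log2(CPM + 0.1) by colour, with white lines between groups and between granule, surface, and cytosolic or nuclear genes. Columns Ct 2 and HF 4 are bright for many rows, such as Il1r2 at 214 and 79.6 CPM, and Ltf is dark in the 4 HF columns.

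The genes with levels most like the members' were ranked by r with the mean z score of the 8 members over the 12 libraries, a description with no test. Among the leading 10 of 14600 were 4933438K21Rik (r = 0.948), Wfdc21 (0.931), Caskin1 (0.927), Pglyrp1 (0.914), Il1r2 (0.910), Trem1 (0.909), Trem3 (0.891), Ly6g (0.891) and Hdc (0.877). Of the 10, 7 were on the list of other neutrophil genes. The formyl peptide receptor genes Fpr1 and Fpr2 were among the 3 least alike of the list, with r = 0.051 and −0.366.

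Among genes for the ligands and receptors of the member proteins, 9 were tested and none was called by edgeR in any comparison, with 2, 2 and 0 at an unadjusted p under 0.05, which 11.9%, 16.1% and 7.98% of all genes had. Cxcl2, a ligand of CXCR2, was between 372 and 1576 CPM in the sorted cells, Cxcl1, another, between 35.6 and 399.7 CPM, and Csf3, which encodes G-CSF, at no more than 4.36 CPM. Tlr4, a receptor for calprotectin, had a log2 fold change of 0.42 in ECH against Ct (SE 0.19, FDR = 0.406 by edgeR). Ppbp, a CXCR2 ligand carried by platelets, was at 8.52 to 17.04 CPM in Ct, 5.93 to 67.5 CPM in ECH and 45.2 to 92.0 CPM in HF, and its log2 fold change in HF against Ct was 2.43 (SE 0.64, FDR = 0.117 by edgeR). The other genes listed for platelets, Gp9, Gp1bb and Itga2b, reached no more than 0.340, 0.380 and 1.94 CPM in any library. Every HF mouse was above every Ct mouse for Ppbp and for Cxcl1 (log2 fold change 1.25, SE 0.58, FDR = 0.318 by edgeR), as for 4.59% of all genes. Slc22a17, a receptor for lipocalin 2, had log2 fold changes of −0.67 in ECH against Ct (SE 0.23, FDR = 0.247 by edgeR) and −0.74 in HF against Ct (SE 0.23, FDR = 0.157).

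Markers of other cells moved with the members in part. The summed level of 5 B cell genes was 96.6 to 446 CPM in Ct, highest in Ct mouse 2, against 34.3 to 79.8 CPM in ECH and 50.1 to 74.6 CPM in HF. HF mouse 4 and ECH mouse 4, the highest of their groups for most members, were not so for this sum. It was 50.1 CPM in HF mouse 4, the lowest of HF, and 46.2 CPM in ECH mouse 4. Genes of T and NK cells summed to 12.9 to 46.1 CPM in Ct, 2.84 to 21.1 CPM in ECH and 6.03 to 16.3 CPM in HF, and 0 of 6 were called in any comparison. The 9 monocyte genes summed to 2360 to 5666 CPM in Ct, 4686 to 5619 CPM in ECH and 4676 to 5908 CPM in HF. Of the 9, 1 was called, Thbs1, a matrix glycoprotein gene, which rose in ECH against Ct (log2 fold change 1.94, SE 0.32, FDR = 0.0202 by edgeR). In that comparison 0.356% of all genes were called. The 5 cardiomyocyte genes summed to 48.4 to 162 CPM in Ct, 49.8 to 114 CPM in ECH and 37.0 to 70.8 CPM in HF, with 5 of 5 fold changes negative in HF against Ct (median −0.80 on the log2 scale). The 5 fibroblast genes summed to 25.7 to 172 CPM in Ct, 73.7 to 395 CPM in ECH and 78.4 to 227 CPM in HF, with 5 of 5 positive in both contrasts against Ct (medians 1.20 and 0.70). None of these 10 genes was called by edgeR, with 0 of 10 in ECH against Ct and 1 of 10 in HF against Ct at an unadjusted p under 0.05. Of all genes, 11.9% and 16.1% passed that threshold. Alas2, an erythroid gene, reached no more than 0.858 CPM. The 4 globin genes were listed at exactly 0 in every library and are near-identical copies, so these zeros may come from the counting and say nothing of erythroid cells. The part of other cell types in the levels of the neutrophil genes was not tested.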

How the data were processed

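RNA from CD14+/CD64+ cells sorted from each heart was made into cDNA libraries with SMART-Seq v4 and sequenced in paired ends. The authors deposited raw counts of reads per gene symbol, 1 file per library, made with FastQC, Trimmomatic (reads under 40 bp discarded), TopHat2 on mm10 and featureCounts. No version, annotation or strand setting is stated in the labels or methods. No molecular identifiers were used, so the floor of 3 counts per library covers counting error only. Each library had more genes at exactly 2 counts than at 1 or at 3.

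From these counts, genes were filtered with filterByExpr and scaled by TMM, and 1 quasi-likelihood model with a mean per group was fitted to the 12 libraries (edgeR 4.0.16, R 4.3.3). The Benjamini-Hochberg adjustment covered 14608 genes. Calls needed an FDR under 0.05 and a change of at least 2-fold. Each mouse is 1 replicate, as labelled. Correlations used log2(CPM + 0.1) with two-sided permutation tests of 100000 resamples (Python 3.11.15). Per-kilobase levels used the union of GENCODE M21 exons.

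Named genes were the 8 members, in each other list the genes called, otherwise the 3 with the highest mean, and the 10 genes most like the members. For lists of other cells only called genes and sums are given, and 2 genes that the rule names are not reported here. Some genes outside this rule were named after their values were seen (Fpr2, Itgb2l, Csf3, Ppbp, Slc22a17, Gp9, Gp1bb, Itga2b and the primary granule genes). Ltf was chosen for its sequence, also after its values were seen. Members and lists were chosen with earlier results of these data known. The alternatives were limma-voom (limma 3.58.1), DESeq2 1.42.0, edgeR's likelihood ratio test, RLE scaling, other filters, other samples, the inferred sets as a covariate, a replicate block and each library left out. The fit was also run on simulated counts with known changes, and the outcome of that run is not reported here. Stfa and Mrgpra2 genes have near-identical copies, so their counts are uncertain.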

Additional observations from a re-analysis of the deposited data

Results flagged for a closer look

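Within groups of 4 mice, 23 sets of values of the 8 neutrophil genes were tested by Dixon's criterion, and 4 had 1 mouse far from the others. Chance flags about 1 in 20 groups of normally distributed values. CPM values were tested without a log and need not follow that rate, and the genes are not independent of each other. Csf3r was at 63.6 CPM in ECH mouse 4, with the next value at 96.1 CPM. Cxcr2 was at 36.4 CPM in HF mouse 4, and the next mouse was at 13.9 CPM. Lcn2 was at 45.3 CPM in ECH mouse 4, with the next at 11.3 CPM. In HF mouse 4 Lcn2 was at 38.3 CPM, and the next was at 8.88 CPM. HF mouse 4 was high for every detected member, whereas ECH mouse 4 was high for Lcn2 and low for Csf3r.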

How the results depend on the processing

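Of 542 fold changes recomputed, 521 kept their direction and side of the threshold, and no direction turned in ECH against Ct or HF against Ct. In HF against ECH, leaving out 1 library gave ranges of −0.38 to 0.32 for Csf3r, −1.36 to 0.44 for Retnlg, −1.69 to 0.61 for Lcn2, −0.74 to 1.27 for S100a8 and −0.39 to 1.42 for S100a9. The turns came without ECH mouse 4 (Csf3r, Retnlg, Lcn2) or HF mouse 4 (Csf3r, S100a8, S100a9). Where edgeR's quasi-likelihood test called 0, DESeq2 called 1 member in ECH against Ct, 2 in HF against Ct and 2 in HF against ECH, and 2, 2 and 1 other neutrophil genes. The likelihood ratio test called 2 members in HF against Ct and 2 in HF against ECH, and 1, 2 and 1 other neutrophil genes. Over all genes DESeq2 called 297, 431 and 66 and the likelihood ratio test 218, 273 and 48, where the quasi-likelihood test called 52, 55 and 0. With only the groups compared, 2 members and 1 other gene were called in HF against Ct, of 41 over 13803 genes. In HF against ECH, 1 member was called with the inferred sets as a covariate, of 272 over 14608 genes, and 1 within 1 set, of 370 over 14864 genes. Leaving out 1 library gave 0 to 1 members in HF against Ct (1, Ngp, without ECH mouse 4) and 0 to 1 other genes there (1 without ECH mouse 2), of 15 to 103 over all genes. The causes were not tested. Camp could not be fitted in every alternative for HF against ECH. The median correlation stayed within 0.182, the SD of r over the 28 pairs, of its main value in 20 of 20 alternatives.

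The replicate numbers did not pair the mice: deviations of same-numbered mice correlated between −0.0701 and 0.0687, and 0 of 12 pairs were over 0.1. With a replicate block 0 members were called in each comparison (of 22, 18 and 0 over 14608 genes), Ngp in HF against Ct had −8.54 (FDR = 0.0653 by edgeR), and Csf3r in HF against ECH turned to −0.024.

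A count of 0 for Camp in an HF library allows a level of up to 0.0287 CPM.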

Other observations

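Itgb2l, an integrin gene of neutrophils, was listed at 0 in all 4 HF mice and reached 1.75 CPM in ECH mouse 4. Pglyrp1, which encodes a peptidoglycan recognition protein of neutrophil granules, was at 8.68, 27.5, 16.4 and 8.76 CPM in Ct mice and at 2.603, 3.52, 0.960 and 5.31 CPM in ECH mice, with a log2 fold change of −2.31 in ECH against Ct (FDR = 0.231 by edgeR, and a call by DESeq2 at FDR = 0.0313).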
